A study of Arabidopsis thaliana with 10 samples.

Results

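Boron deficiency was compared with full nutrition after 4 days and after 2 days, and the response at 4 d was set against the response at 2 d. For each probe set the boron-deficient minus control difference at 2 d was subtracted from the same difference at 4 d, so that a positive value means a higher response at 4 d. The comparison was chosen by the labels of the arrays and takes 8 of the 10 arrays of the series. All 22746 probe sets of the table were read, and 17059 of them passed a filter on low signal and were tested.

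The plants were Arabidopsis thaliana, whose ecotype and genotype the labels do not give, and RNA came from whole plants. The 4 groups were boron-deficient plants at 4 d, control plants at 4 d, boron-deficient plants at 2 d and control plants at 2 d, with 2 arrays each that the labels call biological replicates. A further group of 2 arrays, calcium-deficient plants at 2 d, entered the normalization, the filter and the estimate of spread, and no contrast reported here. Every group had first been raised on perlite, fed 25 µM boron together with calcium at 3 mM, and the deficient ones were then watered without boron or without calcium while the controls stayed on the complete solution. Plants were 21 days old at the 4 d sampling and 19 days old at the 2 d sampling. The labels place the start of treatment at day 17 in one field and at day 19 in another. The number of plants behind an array is not given in the sources used here.

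Boron is a micronutrient that cross-links the pectin rhamnogalacturonan II in the primary cell wall, so growing tissue needs a steady supply of it. Plants take it up through channels and exporters of the plasma membrane, and growth of roots and young leaves stops early when it runs short. Growing cells loosen their walls with expansins, lay down microtubules from tubulin and make histones as they replicate DNA. Leucine, valine and isoleucine are broken down in mitochondria, a route that plants use more when sugar is scarce, and the same family of transaminases starts the synthesis of methionine-derived glucosinolates.

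The arrays of the 2 sampling days were scaled apart by the submitters, with deposited median signals of 232 to 243 at 4 d and 115 to 121 at 2 d, and the signals given here are therefore quantile normalized over all arrays. Sampling day and this scaling cannot be told apart, and only the difference of within-day differences is tested. Replicates lay closer together at 4 d than at 2 d. The median absolute log2 difference between replicates was 0.12 in boron-deficient and 0.11 in control plants at 4 d, against 0.18 in boron-deficient and 0.22 in control plants at 2 d. Boron-deficient replicate 2 of 2 d correlated with the calcium-deficient arrays as closely (Spearman 0.981 and 0.980 over probe sets) as with its own replicate (0.981). Markers of leaf and root were measured in all arrays: the summed signal of 10 nuclear photosynthesis genes was at least 64756, and that of 4 root genes at least 1673. Flower markers had no probe set of their own with a single gene name.

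The estimated boron response was smaller at 4 d than at 2 d for 70.4% of the probe sets tested. Log2 responses had an SD across probe sets of 0.19 at 4 d and 0.41 at 2 d, and 19 probe sets reached a 2-fold change at 4 d against 497 at 2 d. These values include the spread between replicates. Its mean variance was 0.025 in boron-deficient and 0.020 in control plants at 4 d, against 0.064 and 0.075 at 2 d. In the calcium-deficient plants of 2 d it was 0.019. How much of the contrast comes from this spread was not tested. The limma test of each day on its own called 1 probe set at 4 d (0.00586% of those tested) and 1454 at 2 d (8.52%). These counts were 3 at 4 d and 206 at 2 d with array or group weights. Leaving out 1 array gave 0 to 1 at 4 d, and at 2 d 738 (without boron-deficient replicate 2 of 2 d) to 2784 (without control replicate 1 of 2 d). The difference of the responses itself passed an adjusted p of 0.05 for 39 of 17059 probe sets (0.229%), 14 of them higher at 4 d (0.0821%) and 25 lower (0.147%). At an unadjusted p under 0.05 there were 2265 (13.3%), 905 higher (5.31%) and 1360 lower (7.97%). On simulated data with the measured spread of each group, 6.8% of the unchanged probe sets lay under that level, and 4.86% with equal spread.

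The 39 probe sets had absolute log2 differences from 1.07 to 2.86. In all 39 the 4 possible boron-minus-control array differences of 4 d did not overlap those of 2 d, which was also true of 27.3% of all probe sets tested. Their median absolute response was 0.12 at 4 d and 1.58 at 2 d. Of the 39, 38 had also passed the threshold at 2 d and 1 at 4 d, 33 had an absolute response under 0.5 at 4 d, and 30 had responses of opposite sign on the 2 days. The 39 were selected on the difference, a choice that by itself favours unequal sizes and opposite signs, and nothing is read from these counts. Over all probe sets tested, 97.9% had an absolute response under 0.5 at 4 d and 40.8% had responses of opposite sign. A single probe set, that of AT2G27420, had the larger response at 4 d. The name table gives 1 gene for 15 of the 39 (6 higher and 9 lower) and no single gene for the other 24 (8 higher and 16 lower), which are not named here.

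**Figure D1:**
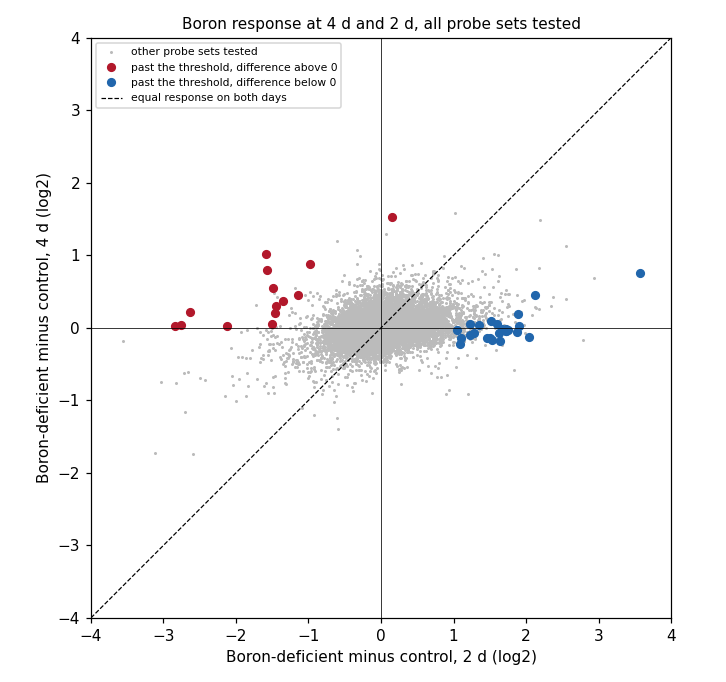
Boron response (boron-deficient minus control, log2) at 4 d on the vertical axis and at 2 d on the horizontal axis for the 17059 probe sets tested, one point each. Red points passed the threshold with a higher response at 4 d (14) and blue points with a lower one (25), and the dashed line marks equal responses. The red and blue points spread along the 2 d axis and, with the exception of the red point of AT2G27420 at the top, reach further on it than on the 4 d axis.

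The count of calls depended on single arrays. It was 0 without boron-deficient replicate 2 of 4 d (lowest adjusted p = 0.0625, 1380 at an unadjusted p under 0.05) and 0 without control replicate 2 of 4 d (lowest adjusted p = 0.0582, 1270 unadjusted). It was 2 without control replicate 1 of 4 d, 17 without boron-deficient replicate 2 of 2 d and 10 without either calcium-deficient array. It was 49 without boron-deficient replicate 1 of 4 d, 119 without boron-deficient replicate 1 of 2 d, 104 without control replicate 2 of 2 d and 428 without control replicate 1 of 2 d. In each of these fits every one of the 39 that was still tested kept its direction.

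Across the 17059 probe sets the 4 d and 2 d responses, which share no array, had a Pearson correlation of 0.319 and a Spearman correlation of 0.278, given as a description. Of the 990 probe sets (5.80% of those tested) called higher in boron-deficient plants at 2 d, 647 (65.4%) were also above their control at 4 d. The median log2 response of these 990 was 0.07 at 4 d and 0.80 at 2 d. Of the 464 (2.72%) called lower at 2 d, 335 (72.2%) were below their control at 4 d, with a median of −0.12 at 4 d and −0.75 at 2 d. Over both directions 67.5% kept their sign, against 59.2% of all probe sets tested, and 99.7% had a smaller response at 4 d, against 70.4%. These probe sets were selected on the 2 d values, which by itself makes the 2 d response the larger, and the 4 d values were no part of that selection. The share with the same sign was 46.6% without boron-deficient replicate 1 of 4 d and 82.9% without boron-deficient replicate 2 of 4 d.

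The group whose mean lay farthest from the mean of the other 3 was usually a 2 d group. Among the 39 it was the control plants of 2 d in 27 (69.2%), the boron-deficient plants of 2 d in 11 (28.2%) and the boron-deficient plants of 4 d in 1. Among the 25 with a lower response at 4 d, the control plants of 2 d stood apart in 22, and among the 14 with a higher response the boron-deficient plants of 2 d stood apart in 8 and the controls of 2 d in 5. Over all probe sets tested the shares were 14.7% for boron-deficient plants at 4 d, 14.9% for controls at 4 d, 28.1% for boron-deficient plants at 2 d and 42.3% for controls at 2 d. The share of the 2 d controls was 34.0% with the values as deposited. Of the 39, 38 were also called at 2 d, which by itself favours a 2 d group as the one farthest away. Replicates also lay farther apart at 2 d, and the part of that spread in these shares was not tested. What sets the 2 d controls apart was not tested.

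**Figure D2:**
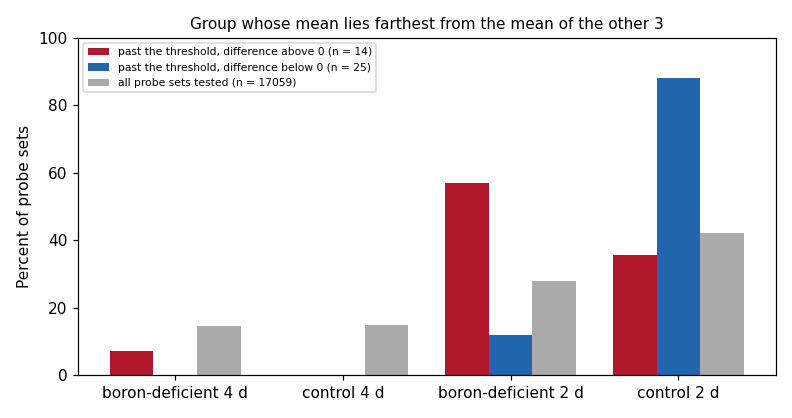
Percent of probe sets (vertical axis) for which each group mean lies farthest from the mean of the other 3 groups, for the 14 with a higher response at 4 d, the 25 with a lower one and all 17059 tested. The blue bar of control 2 d reaches 88.0% (22 of 25), the red bar is tallest for boron-deficient 2 d (8 of 14), and no called probe set has its odd group among the 4 d controls.

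The largest difference of responses was that of AT1G09500, annotated by the study as an alcohol dehydrogenase-like gene. Its signal was 91.7 and 90.7 in boron-deficient and 127 and 61.9 in control plants at 4 d, and 91.7 and 79.6 in boron-deficient and 610.1 and 821 in control plants at 2 d. The 2 control arrays of 2 d were high and all other arrays low, with the 4 d groups overlapping. The calcium-deficient arrays read 100.1 and 124. The log2 response was 0.02 at 4 d and −2.83 at 2 d, a difference of 2.86 ± 0.36 (SE, n = 2 arrays per group, limma, adjusted p = 0.0242).

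AT1G71000 had the same arrangement at lower signal. It read 43.0 and 45.2 in boron-deficient and 43.7 and 42.2 in control plants at 4 d, and 57.5 and 40.5 in boron-deficient and 232 and 302 in control plants at 2 d. The 2 d controls stood above every other array, and it passed the filter on low signal through them, falling under it when either was left out. The difference was 2.15 ± 0.22 (SE, n = 2 per group, limma, adjusted p = 0.0152), with responses of 0.03 at 4 d and −2.12 at 2 d. Having passed the filter only through the group in which it was high, it had to differ, and its values are given as a description.

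Hop3, a co-chaperone that links Hsp70 and Hsp90, was low in the boron-deficient plants of 2 d instead. It read 516 and 622 in boron-deficient and 429 and 487 in control plants at 4 d, and 114 and 136 in boron-deficient and 429 and 316 in control plants at 2 d. Both boron-deficient arrays of 4 d were above both of their controls, and both of 2 d were below theirs. The response was 0.30 at 4 d and −1.45 at 2 d, and the difference 1.75 ± 0.24 (SE, n = 2 per group, limma, adjusted p = 0.0304). The calcium-deficient arrays read 138 and 128. None of the listed heat shock protein genes had a probe set with a single gene name, so no list stands beside this gene. Apart from entries set by locus, that list was matched by symbol, so other genes named by locus alone could not enter it. Whether probe sets without such a name read them was not examined.

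AT2G20560 had responses of opposite sign on the 2 days. Its signal was 485 and 489.6 in boron-deficient and 300.2 and 221 in control plants at 4 d, and 136 and 196 in boron-deficient and 336 and 341 in control plants at 2 d. The deficient arrays were above their controls at 4 d and below them at 2 d, with no overlap on either day. The log2 response was 0.88 at 4 d, which alone did not pass (adjusted p = 0.662), and −0.98 at 2 d (adjusted p = 0.0133), and their difference was 1.86 ± 0.25 (SE, n = 2 per group, limma, adjusted p = 0.0304).

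ASPGB1, an asparaginase that frees ammonium from asparagine, had a similar course. It read 226 and 263 in boron-deficient and 207 and 146 in control plants at 4 d, and 125 and 129.7 in boron-deficient and 267 and 337 in control plants at 2 d. Deficient arrays were the higher ones at 4 d and the lower ones at 2 d. The difference was 1.59 ± 0.24 (SE, n = 2 per group, limma, adjusted p = 0.0433), with responses of 0.45 and −1.14, and it was past the threshold in 4 of the 12 other settings.

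AT2G27420 was the one gene with a called response at 4 d. It read 489.5 and 485 in boron-deficient and 178 and 139.7 in control plants at 4 d, and 44.0 and 51.9 in boron-deficient and 36.0 and 47.4 in control plants at 2 d. Both boron-deficient arrays of 4 d stood above all others, the 4 d controls came next, and the 2 d groups overlapped. Its response was 1.53 at 4 d (limma, adjusted p = 0.0297) and 0.15 at 2 d (adjusted p = 0.537), and the difference was 1.38 ± 0.21 (SE, n = 2 per group, adjusted p = 0.0401). The 4 d response was past the threshold in 8 of the 11 other settings that tested it and in 2 of the 10 fits that left out 1 array, and the difference in 6 of 11 and 2 of 10. With a pseudocount of 1 (adjusted p = 0.0791), only the 8 boron and control arrays (0.166) or the replicate block (0.0628) the 4 d response did not pass, nor did it pass without either array of either 4 d group (0.106 to 0.671), either boron-deficient array of 2 d or either calcium-deficient array. The 4 d response is a 2.89-fold higher signal on the log2(signal + 16) scale, on which the changes of weakly expressed genes are understated.

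Among the 9 named genes with a lower response at 4 d, AT5G07030 had the largest difference. It read 576 and 442 in boron-deficient and 529 and 573 in control plants at 4 d, and 576 and 653 in boron-deficient and 154 and 121 in control plants at 2 d. Only the 2 control arrays of 2 d were low, and the 4 d groups overlapped. The response was −0.12 at 4 d and 2.04 at 2 d, and the difference −2.17 ± 0.27 (SE, n = 2 per group, limma, adjusted p = 0.0242). AT1G67750, with a difference of −1.70 (adjusted p = 0.0346), had its 4 d arrays between 379 and 522 and its boron-deficient arrays of 2 d at 492 and 523, against 145 and 109 in the 2 d controls.

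ATLP-1, a thaumatin-like protein, belonged with them. Its signal was 403 and 297 in boron-deficient and 343 and 378 in control plants at 4 d, and 357 and 459 in boron-deficient and 116 and 83.1 in control plants at 2 d. The 2 d controls were again the only low arrays. The response was −0.05 at 4 d and 1.88 at 2 d, with a difference of −1.93 ± 0.28 (SE, n = 2 per group, limma, adjusted p = 0.0346).

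EXPA4, an alpha-expansin that loosens cell walls, was the only listed expansin or xyloglucan endotransglucosylase to pass. It read 503 and 528 in boron-deficient and 572 and 565 in control plants at 4 d, and 376 and 486 in boron-deficient and 148 and 141 in control plants at 2 d. The boron-deficient arrays were below both controls at 4 d and above both at 2 d, and the 2 d controls were the lowest of all. The difference was −1.60 ± 0.24 (SE, n = 2 per group, limma, adjusted p = 0.0415), with responses of −0.14 at 4 d and 1.47 at 2 d, and 6 of the 12 other settings called it.

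DRT100, named for DNA damage repair and toleration, was high in the boron-deficient plants of 2 d. It read 791 and 666 in boron-deficient and 744 and 871 in control plants at 4 d, and 1425 and 1628 in boron-deficient and 571 and 491 in control plants at 2 d. The 4 d groups overlapped and lay between the 2 groups of 2 d. The response was −0.14 at 4 d and 1.50 at 2 d, a difference of −1.64 ± 0.22 (SE, n = 2 per group, limma, adjusted p = 0.0272).

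The remaining genes with a lower response at 4 d were AT5G58390, AT1G49700, AT3G02640 and AT4G38660, with differences of −1.36, −1.31, −1.31 and −1.07 (limma, adjusted p = 0.0397, 0.0433, 0.0401 and 0.0453). AT4G38660 read 477 and 429 in boron-deficient and 462 and 459 in control plants at 4 d, and 325 and 304 in boron-deficient and 148 and 142 in control plants at 2 d. AT1G49700 read 88.3 and 72.5 in boron-deficient and 87.7 and 105 in control plants at 4 d, and 236 and 280.4 in boron-deficient and 118 and 108 in control plants at 2 d. The 2 d controls of AT4G38660 were the lowest arrays of that gene, while AT1G49700 was higher in both boron-deficient arrays of 2 d than in the other 3 groups. Both had overlapping 4 d groups. Of the 15 named genes, AT5G07030 was past the threshold in 6 of the 10 fits that left out 1 array, AT1G09500 in 5 of 10 and the other 12 that were tested in all 10 in 4 or fewer. Among these 14, the share of other settings that called the difference ran from 4 of 12 for AT4G38660 and ASPGB1 to 10 of 12 for AT5G07030 and Hop3, and each lost the call in at least 2.

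**Figure D3:**
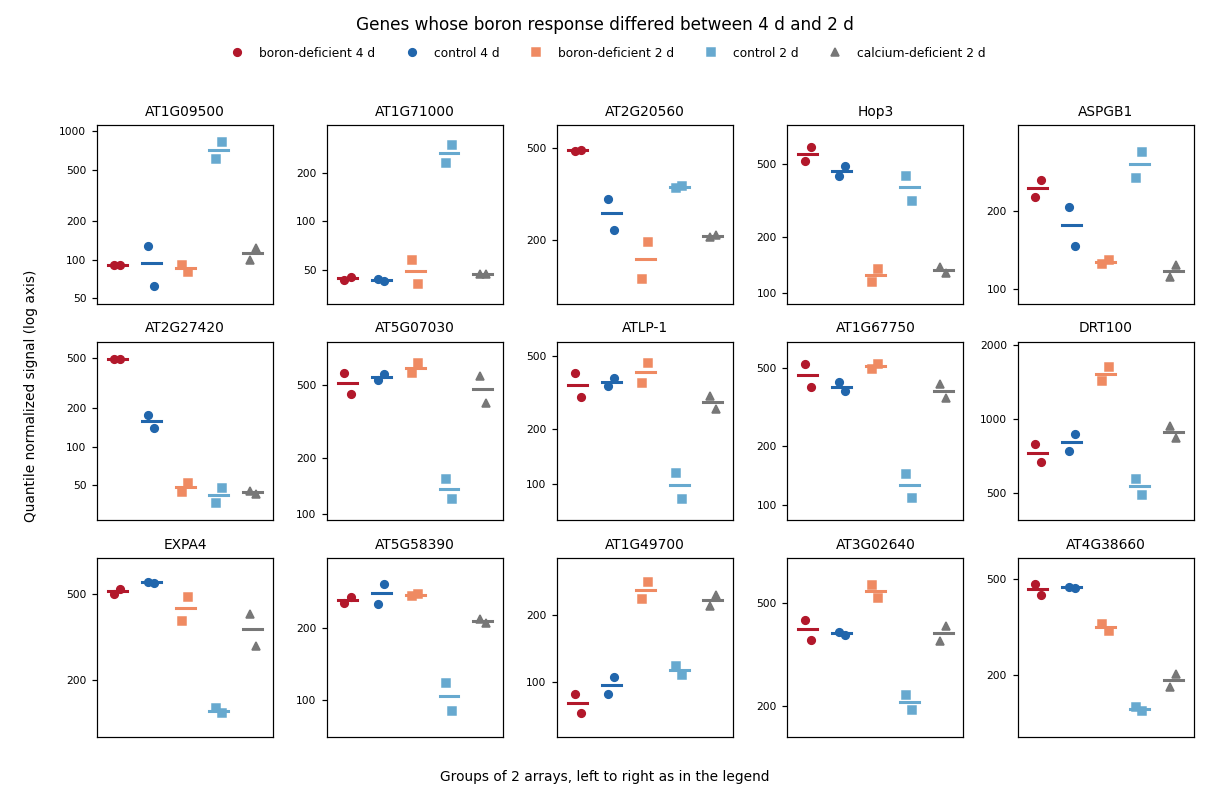
Quantile normalized signal (log axis) of the 15 named genes past the threshold, a panel each, for boron-deficient 4 d, control 4 d, boron-deficient 2 d, control 2 d and calcium-deficient 2 d from left to right. Points are arrays and lines are group means (n = 2). The first 6 panels have a higher response at 4 d and the other 9 a lower one. In AT1G09500 and AT1G71000 only the 2 d controls are high, in Hop3 the boron-deficient and calcium-deficient plants of 2 d are low, and in AT2G27420 only the 4 d arrays are raised.

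Of 22 genes listed for leucine, valine and isoleucine breakdown, 12 had a probe set with a single gene name, and limma called 0 of these in either direction. At an unadjusted p under 0.05, where all probe sets tested had 5.31% higher and 7.97% lower, 6 of the 12 were higher and 0 lower. The lists here and below were chosen with earlier results of these data known, and the 2 d response is part of the difference. Their counts beside these shares are given as a description. The median difference of the 12 was 0.35, against 0.01 over all probe sets, with a median response of −0.15 at 4 d and −0.35 at 2 d. IVD, isovaleryl-CoA dehydrogenase of the leucine route, read 253 and 479 in boron-deficient and 636 and 498 in control plants at 4 d, and 541 and 774 in boron-deficient and 2304 and 3267 in control plants at 2 d. The deficient arrays were below their controls on both days, and the 2 d controls stood far above the other 6 arrays. The difference was 1.39 (95% interval 0.41 to 2.37, adjusted p = 0.221), with responses of −0.67 at 4 d and −2.06 at 2 d.

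MCCA and MCCB, the subunits of the carboxylase that follows IVD, lay the same way. MCCA read 459 and 599 in boron-deficient and 939 and 801 in control plants at 4 d, and 765 and 686 in boron-deficient and 2048 and 3969 in control plants at 2 d. MCCB read 381 and 355 in boron-deficient and 476 and 473 in control plants at 4 d, and 681 and 742 in boron-deficient and 1515 and 2025 in control plants at 2 d. For both subunits the deficient arrays were below the controls of the same day without overlap. The differences were 1.24 (0.36 to 2.13, adjusted p = 0.224) for MCCA and 0.93 (0.44 to 1.42, adjusted p = 0.124) for MCCB.

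ETFQO, which passes electrons from this breakdown to ubiquinone, read 255 and 299 in boron-deficient and 402 and 326 in control plants at 4 d, and 332 and 347 in boron-deficient and 802 and 1322 in control plants at 2 d. The deficient arrays lay below their controls on each day, and its difference was 1.19 (0.50 to 1.88, adjusted p = 0.152). ALDH6B2, the methylmalonate semialdehyde dehydrogenase of valine breakdown, had responses of −0.27 at 4 d and −1.02 at 2 d (difference 0.75, adjusted p = 0.295). AT4G31810, listed as CHY4, had the lowest difference of the list, −0.52 (adjusted p = 0.419). Without control replicate 1 of 2 d, the lower of its pair in these genes, the differences were 1.71 (MCCA), 1.13 (MCCB) and 1.54 (ETFQO).

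Synthesis and supply of the branched-chain amino acids had 5 measured genes, of which limma called 0, with a median difference of −0.30. At an unadjusted p under 0.05, 1 was higher and 2 lower, beside 5.31% and 7.97% of all probe sets tested. MGL, methionine gamma-lyase, whose product can feed isoleucine synthesis, read 272 and 316 in boron-deficient and 461 and 449 in control plants at 4 d, and 197 and 321 in boron-deficient and 1427 and 1966 in control plants at 2 d. On both days the deficient arrays were lower, and the 2 d controls were the highest. The difference was 2.05 (1.16 to 2.94, limma, adjusted p = 0.0736), and 2.27 without control replicate 1 of 2 d. AT3G23940, listed as dihydroxyacid dehydratase, had responses of 0.16 at 4 d and 0.82 at 2 d (difference −0.66, adjusted p = 0.271).

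All 4 measured glucosinolate genes had a smaller response at 4 d than at 2 d, with 0 called by limma. At an unadjusted p under 0.05, 2 were lower, beside 7.97% of all probe sets tested. Their median response was 0.35 at 4 d and 1.28 at 2 d, and their median difference −0.75. BCAT4, the transaminase that starts the chain elongation of methionine, read 1606 and 1297 in boron-deficient and 1283 and 892 in control plants at 4 d, and 2336 and 2423 in boron-deficient and 776 and 733 in control plants at 2 d. On each day the deficient arrays were above both controls, with a narrow gap at 4 d, and the difference was −1.21 (−1.88 to −0.54, adjusted p = 0.136).

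GSTU20, a glutathione transferase of the same list, read 1737 and 1213 in boron-deficient and 1147 and 1281 in control plants at 4 d, and 2038 and 1347 in boron-deficient and 416 and 301 in control plants at 2 d. The 4 d groups overlapped and the 2 d groups did not. The difference was −1.92 (−2.78 to −1.06, limma, adjusted p = 0.0819), and −2.14 without control replicate 1 of 2 d. The glucosyltransferases UGT74B1 and AT2G31790, listed as UGT74C1, had responses of 0.26 and 0.64 at 4 d and of 0.56 and 0.92 at 2 d.

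AT1G73600, annotated by the study as a gene of the phosphoethanolamine methyltransferase family, fell just short of the threshold. It read 2345 and 1799 in boron-deficient and 1477 and 1093 in control plants at 4 d, and 1175 and 722 in boron-deficient and 134 and 83.6 in control plants at 2 d. The deficient arrays were above their controls on both days and the 2 d controls were the lowest. The response was 0.69 at 4 d and 2.94 at 2 d, and the difference −2.25 (−3.15 to −1.36, adjusted p = 0.0582). The difference passed with the replicate number as a block (limma, adjusted p = 0.0144), and it was −2.56 without control replicate 1 of 2 d.

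**Figure D4:**
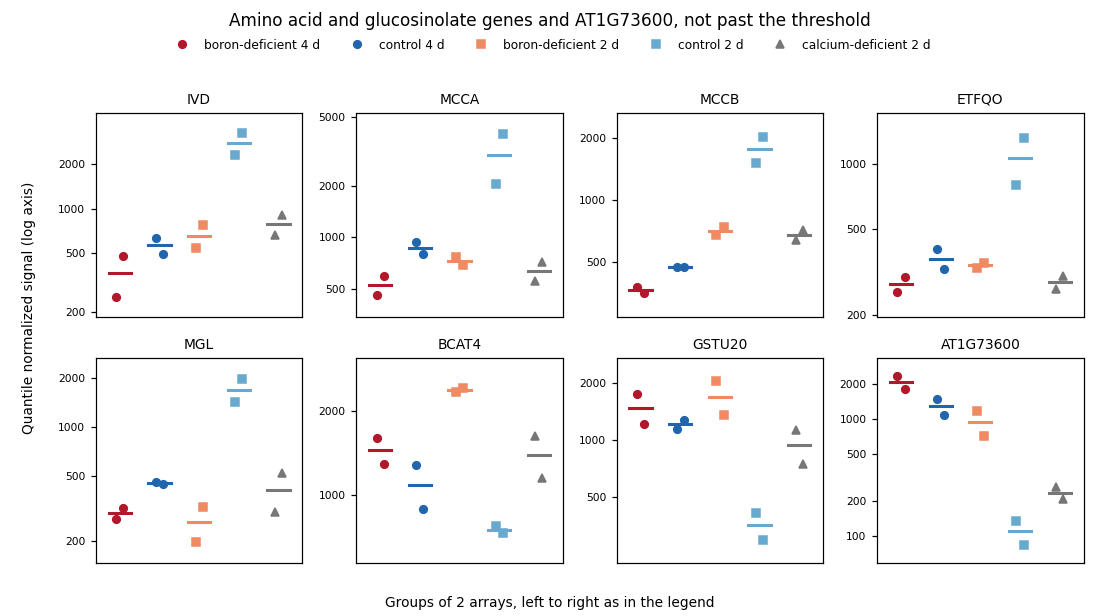
Quantile normalized signal (log axis) of 5 genes of amino acid breakdown and supply (IVD, MCCA, MCCB, ETFQO, MGL), BCAT4, GSTU20 and AT1G73600 in boron-deficient 4 d, control 4 d, boron-deficient 2 d, control 2 d and calcium-deficient 2 d, left to right. Points are arrays and lines group means (n = 2). In the first 5 panels the 2 d controls stand above all other arrays, and in BCAT4, GSTU20 and AT1G73600 below them. The difference of responses was not past the threshold in any of the 8.

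Of 6 measured genes of the sugar starvation and darkness list, which shares IVD and MCCA with the breakdown list, limma called 0. At an unadjusted p under 0.05, 4 were higher and 0 lower, beside 5.31% and 7.97% of all probe sets tested. The median difference was 1.04, with median responses of −0.68 at 4 d and −1.77 at 2 d. GAT1_2.1, a glutamine amidotransferase-like gene, read 149 and 266 in boron-deficient and 406 and 273 in control plants at 4 d, and 296 and 659 in boron-deficient and 2072 and 3206 in control plants at 2 d. The 2 d controls were far above the rest, and at 4 d both deficient arrays lay below both controls by a narrow margin. The difference was 1.80 (0.54 to 3.07, adjusted p = 0.220), and a second probe set of the gene gave 1.31. ATL8, a RING finger gene, and AKINBETA1, a subunit of the SnRK1 energy-sensing kinase, had responses of −0.76 and −0.50 at 4 d and of −1.58 and −1.02 at 2 d.

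Wall-loosening genes were the largest nuclear list. Of 27 expansin and xyloglucan endotransglucosylase genes with a probe set, 20 passed the filter, and limma called 0 higher and 1 lower (EXPA4). At an unadjusted p under 0.05, 1 was higher and 5 lower, beside 5.31% and 7.97% of all probe sets tested. The median difference was −0.28, with −0.03 at 4 d and 0.30 at 2 d. EXPB3 and XTH32 had responses of −0.11 and 0.00 at 4 d and of 0.92 and 1.11 at 2 d (adjusted p = 0.0697 and 0.0537 for the differences). EXPA8 was the listed gene with the lowest 4 d response, −0.55, against 0.79 at 2 d (difference −1.34, adjusted p = 0.114). EXLA1, an expansin-like gene, lay the other way, with 0.40 at 4 d and −0.85 at 2 d (difference 1.25, adjusted p = 0.259). The pectin enzyme list was matched by gene symbol, so genes named by locus alone could not enter it. Its 3 measured genes had 0 calls and 0 at an unadjusted p under 0.05. PMEPCRF among them read 2812 and 2896 in boron-deficient and 2514 and 3039 in control plants at 4 d.

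Tubulin genes numbered 7, with 0 called by limma. At an unadjusted p under 0.05, where all probe sets tested had 5.31% higher and 7.97% lower, 1 tubulin gene was higher and 5 were lower. Their median difference was −0.53, with median responses of 0.04 at 4 d and 0.51 at 2 d. TUB1, a beta-tubulin, read 189.9 and 126 in boron-deficient and 155 and 146 in control plants at 4 d, and 389 and 431 in boron-deficient and 122 and 70.0 in control plants at 2 d. The boron-deficient plants of 2 d were above all other arrays, and the difference was −1.93 (−2.65 to −1.20, adjusted p = 0.0544). The difference was −2.28 without control replicate 1 of 2 d, −1.59 without control replicate 2 of 2 d and −2.18 without boron-deficient replicate 1 of 4 d. TUB7 and TUA6 had responses of −0.02 and 0.04 at 4 d and of 0.91 and 0.89 at 2 d, while TUA1 had −0.08 at 4 d and −0.67 at 2 d. Without control replicate 1 of 2 d the difference of TUB7 was −1.14.

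Histone genes followed with 5 measured, 0 called by limma and a median difference of −0.55. At an unadjusted p under 0.05, where all probe sets tested had 7.97% lower, 3 of the 5 were lower. HTB2, a histone H2B, read 290.0 and 215 in boron-deficient and 197 and 233 in control plants at 4 d, and 642 and 504 in boron-deficient and 219 and 180.3 in control plants at 2 d. The 4 d groups overlapped and the boron-deficient plants of 2 d were the highest. The difference was −1.24 (−1.81 to −0.67, limma, adjusted p = 0.0897), and −1.37 without control replicate 1 of 2 d. HTB4 and HTB11 had responses of −0.08 and −0.01 at 4 d and of 0.52 and 0.55 at 2 d. Members of the tubulin and histone families have near-identical copies, and whether their probe sets read more than 1 of them was not tested.

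Root gene signal stood as follows beside these lists. The summed signal of 4 root genes was 4414 and 4247 in boron-deficient and 4534 and 4684 in control plants at 4 d, and 2734 and 3971 in boron-deficient and 1673 and 2012 in control plants at 2 d. At 4 d both deficient arrays lay slightly below both controls, at 2 d both lay above both controls, and all 2 d arrays of these groups were below the 4 d arrays. The sum in calcium-deficient plants was 4413 and 3347. In bulk RNA fewer cells of a type and less RNA per cell cannot be told apart. The part of the root signal in the values of the wall, tubulin, histone and glucosinolate genes was not tested.

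PYK10, the main beta-glucosidase of root endoplasmic reticulum bodies, carried most of that sum. It read 4143 and 3969 in boron-deficient and 4248 and 4473 in control plants at 4 d, and 2309.8 and 2976 in boron-deficient and 1428 and 1739 in control plants at 2 d. Its difference was −0.83 (−1.40 to −0.27, adjusted p = 0.208). The root hair expansins EXPA7 and EXPA18, which are also on the wall list, had responses of −0.06 and 0.04 at 4 d and of 0.43 and 0.72 at 2 d, and AT4G26010, listed as the peroxidase PRX44, had 0.39 at 4 d and 1.97 at 2 d. Limma called 0 of the 4, and the median difference was −0.75. At an unadjusted p under 0.05, 2 were lower, beside 7.97% of all probe sets tested. Nuclear photosynthesis genes, as leaf markers, had summed signals of 86781 and 87141 in boron-deficient and 89826 and 87092 in control plants at 4 d, and of 88618 and 81135 in boron-deficient and 80338 and 90617 in control plants at 2 d, with groups overlapping on both days.

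Plastid-encoded genes numbered 69, with 0 called by limma and 55 with a difference above 0. At an unadjusted p under 0.05, where all probe sets tested had 5.31% higher and 7.97% lower, 12 of the 69 were higher and 0 lower. The median difference was 0.20, with 0.14 at 4 d and −0.09 at 2 d. The gene atpF, for a stator subunit of the chloroplast ATP synthase, read 3393 and 4429 in boron-deficient and 2439.7 and 2407 in control plants at 4 d, and 1797 and 1979.8 in boron-deficient and 2023 and 2026 in control plants at 2 d. The deficient arrays were above their controls at 4 d and below them at 2 d without overlap. Its difference was 0.78 (0.33 to 1.22, adjusted p = 0.148), and psbA, for the D1 protein of photosystem II, had 0.58 at 4 d and −0.19 at 2 d. The plastid genes share transcription units, and the 10 nuclear photosynthesis genes had a median difference of 0.10 with 0 called and 0 higher and 1 lower at an unadjusted p under 0.05. That 1 was LHCB4.2, an antenna protein, with −0.24 at 4 d and 0.61 at 2 d (adjusted p = 0.360). Of 11 mitochondrion-encoded genes 0 were called, 2 were higher unadjusted, and cox2 had responses of 0.03 at 4 d and −0.65 at 2 d.

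**Figure D5:**
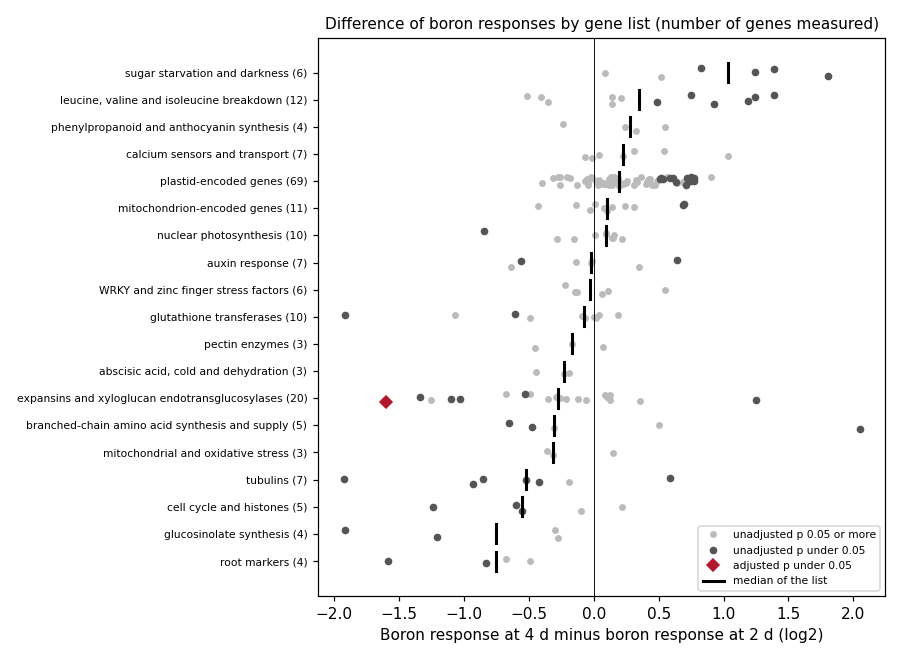
Difference of the boron responses, 4 d minus 2 d (log2, horizontal axis), for each measured member of the lists with 3 or more members, a row per list with the number of members in brackets. Grey points have an unadjusted p of 0.05 or more, dark points under it, the diamond is EXPA4, past the adjusted threshold, and bars are list medians. The starvation list has the highest median (1.04) and the root list the lowest (−0.75).

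Some listed genes lay on the same side of their control on both days. AT1G04770, listed as SDI2 of the sulfur response, read 897 and 694 in boron-deficient and 295 and 217 in control plants at 4 d, and 646 and 531 in boron-deficient and 267 and 292 in control plants at 2 d. Both deficient groups were above their controls without overlap. The response was 1.58 at 4 d (limma, adjusted p = 0.0776) and 1.03 at 2 d (adjusted p = 0.0125), with a difference of 0.55 (−0.03 to 1.14, adjusted p = 0.403). WRKY53, a transcription factor of senescence and stress, had responses of 0.70 at 4 d and 0.93 at 2 d (difference −0.22, −0.78 to 0.33), and 6 genes of the WRKY and zinc finger list had 0 calls and 0 at an unadjusted p under 0.05. The boron transport list had 6 genes, of which only WRKY6, linked to low boron in roots, had a probe set with a single gene name. The boron transporters of that list were therefore not examined. WRKY6 read 380.4 and 732 in boron-deficient and 656 and 395 in control plants at 4 d, so that its replicates differed more than its groups.

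Auxin genes were among them. GH3.3, which conjugates auxin to amino acids, had responses of −1.11 at 4 d and −1.08 at 2 d, a difference of −0.02 (adjusted p = 0.990). IAA29, an auxin-response repressor, read 96.2 and 88.9 in boron-deficient and 208 and 279.9 in control plants at 4 d, and 66.0 and 38.0 in boron-deficient and 82.3 and 88.7 in control plants at 2 d. It was below the control on both days without overlap, with −1.25 at 4 d and −0.61 at 2 d (difference −0.64, −1.37 to 0.09, adjusted p = 0.439). Of 7 auxin genes measured 0 were called. At an unadjusted p under 0.05, 1 was higher and 1 lower, beside 5.31% and 7.97% of all probe sets tested.

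The lists of calcium sensors (7 measured), phenylpropanoid synthesis (4), abscisic acid and cold (3) and oxidative stress (3) had 0 calls and 0 genes at an unadjusted p under 0.05, with medians of 0.22, 0.28, −0.23 and −0.32. CML37, a calmodulin-like sensor, had the largest difference among them, 1.04 with an interval of −0.45 to 2.52. Of 10 measured glutathione transferases 0 were called and 2 were lower unadjusted (7.97% of all probe sets tested), GSTU20 being the lowest. The clock list had 2 measured genes and 0 calls. CCL, a clock-controlled gene, read 357 and 641 in boron-deficient and 907 and 914 in control plants at 4 d, and 8688 and 8638 in boron-deficient and 9792 and 9079 in control plants at 2 d. Its level was lower at 4 d than at 2 d in both treatments, a contrast in which sampling day and array scaling cannot be told apart, and its difference of responses was −0.78 (−1.46 to −0.10, adjusted p = 0.315).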

How the data were processed

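Total RNA of whole plants was hybridized to Affymetrix ATH1 arrays. The authors deposited linear signal intensities for each probe set, produced in GCOS 1.4 according to the submitters' processing notes. Their scaling target is not given in the sources used here. Intensities of the 10 arrays were quantile normalized together, 16 was added before log2, and the 5687 probe sets whose average fell below the 25th percentile were not tested. Limma 3.58.1 in R 4.3.3 fitted 5 group means with 5 residual degrees of freedom and an intensity trend, with Benjamini-Hochberg adjustment over 17059 probe sets at 0.05. The array number limits the precision.

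Of the 22746 probe sets 13513 have a single gene in the platform table, 503 have several and 8730 were not in it; 13436 matched RefSeq TAIR10.1. Plastid genes were matched by chromosome and mitochondrial genes by symbol. A listed gene counts as measured only where a probe set with its single gene name passed the filter. Named genes are the up to 12 most positive and most negative calls without overlap of array differences, up to 5 called or 2 largest members of each list, and 10 genes set by name; the probe set with the highest mean stands for a gene. Members and lists were chosen with earlier results of these data known. On simulated data of 17059 probe sets with the measured spread of each group, the test of this difference recovered 55 of 100 changes of log2 1 and 95 of 100 of log2 2, with 13 false among 163 calls. Deviations of same-numbered replicates from their group means correlated at −0.25 to 0.23 between groups, not over 0.1 in every pair, so the numbers were not taken to pair samples. Alternatives covered normalization, pseudocount, filter, arrays, weights, block and trend. Promoter sequences were not used here. Matplotlib 3.10.9 (Python 3.11.15) drew the figures.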

Additional observations from a re-analysis of the deposited data

Results flagged for a closer look

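For 15 named genes the difference between the boron responses of 4 d and 2 d passed an adjusted p of 0.05 (limma), by the test of the difference itself. The response was higher at 4 d for AT1G09500 (log2 difference 2.86), AT1G71000 (2.15), AT2G20560 (1.86), Hop3 (1.75), ASPGB1 (1.59) and AT2G27420 (1.38). It was lower at 4 d for AT5G07030 (−2.17), ATLP-1 (−1.93), AT1G67750 (−1.70), DRT100 (−1.64), EXPA4 (−1.60), AT5G58390 (−1.36), AT1G49700 (−1.31), AT3G02640 (−1.31) and AT4G38660 (−1.07). Of these genes 14 lost the call in at least 1 of the other settings, and AT4G38660 and ASPGB1 kept it in 4 of 12, AT1G49700 in 4 of 11, EXPA4 in 6 of 12 and AT2G27420 in 6 of 11. All 15 lost it in some of the fits that left out 1 array. AT1G71000 passed the filter on low signal only through the 2 d controls, where it was high, so its difference is a description. With 2 arrays a group no array could be tested for lying apart.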

How the results depend on the processing

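The 39 calls (14 higher, 25 lower) became 51 (16 and 35) with the values as deposited, 33 (13 and 20) with median centring, 34 (13 and 21) with quantile normalization within each day or a pseudocount of 64, 44 (12 and 32) with a pseudocount of 1, 35 (14 and 21) with no filter, 31 (8 and 23) with the filter at the 50th percentile and 41 (15 and 26) without the intensity trend. They fell to 10 (5 and 5) with only the 8 boron and control arrays, which leaves 4 residual degrees of freedom. The calcium-deficient arrays dropped there had the lowest mean replicate variance (0.019), and its part in this count was not tested. The calls fell to 11 (6 and 5) with array weights or group weights, which coincide with 2 arrays a group, and to 15 (6 and 9) with the replicate number as a block. The numbers were not taken to pair the samples, so the block is given as a value only. It rests on the replicate numbers of the titles, as do the names of the arrays left out, and the array descriptions number the boron-deficient arrays of 2 d differently. Leaving out 1 array at a time gave 0 to 428 calls, 0 to 126 higher and 0 to 302 lower. Calls kept their direction in every alternative that tested them. The 15 called named genes had 175 values in the 12 other settings, of which 110 were past the threshold and 65 were not, with 0 changes of direction. With 1 array left out, CML41 (lowest −0.0016, highest 1.08), COR15A (−0.47 to 0.012) and GI (−0.24 to 0.35), none of them called, changed sign. List medians kept their sign in all alternatives for breakdown (0.30 to 0.50), starvation (0.71 to 1.31), glucosinolate (−0.94 to −0.61), wall (−0.46 to −0.22), tubulin (−0.68 to −0.38), histone (−0.67 to −0.38), root (−1.06 to −0.45) and plastid genes (0.15 to 0.30), and changed sign for the WRKY, auxin, mitochondrion-encoded, nuclear photosynthesis and cold lists. Where the count moved by more than 1.5 times the cause was not tested. The planned count of promoter motifs was not run. With 2 arrays a group, a change of log2 1 was recovered for 55 of 100 simulated probe sets.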

Other observations

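Some genes outside the comparison of responses differed between the days in both treatments, given as values because sampling day and array scaling cannot be told apart. GR1, a glutathione-disulfide reductase, read 2848 and 2892 in boron-deficient and 2981 and 2769 in control plants at 4 d, and 475 and 588 in boron-deficient and 400.3 and 415 in control plants at 2 d. Its boron response was 0.00 at 4 d and 0.36 at 2 d (limma, adjusted p of the difference 0.440). UGT78D2, a flavonoid glucosyltransferase, read 1050.3 and 909 in boron-deficient and 786 and 592 in control plants at 4 d, and 209 and 262 in boron-deficient and 190.4 and 218 in control plants at 2 d. GI, a clock gene, read 383 and 398 in boron-deficient and 387 and 307 in control plants at 4 d, and 931 and 974 in boron-deficient and 710.1 and 1084 in control plants at 2 d.

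The defensin gene PDF1.2 read 848 and 411 in boron-deficient and 589.9 and 778 in control plants at 4 d, and 2194 and 1781 in boron-deficient and 831 and 1160.3 in control plants at 2 d. Its groups overlapped at 4 d and not at 2 d, and the difference of responses was −1.19 (−2.16 to −0.21, limma, adjusted p = 0.288). AT1G47400, of the iron list, read 601 and 254 in boron-deficient and 183 and 250.3 in control plants at 4 d, and 198 and 288 in boron-deficient and 58.4 and 26.7 in control plants at 2 d. Its difference was −1.35 (−2.56 to −0.14, adjusted p = 0.327).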
